A study of Mus musculus with 4 samples.

Results

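Fatty acid oxidation and ketone genes were compared between normal ureter and ureter tumors of C57Bl/6 mice. The group was set by function, as 37 genes that activate fatty acids, carry them into mitochondria, oxidize them there or in peroxisomes, use ketone bodies, or encode pyruvate dehydrogenase kinases, with the transcription factor gene Ppara. The platform annotation assigned 68 of the 45101 probe sets of the array to a single gene among them, and these covered 35 genes of the 18193 genes with such a probe set. Acsl1 and Cpt1b had no single-gene probe set in the annotation used and are not analysed here as genes. All 35 passed the filter on low values.

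RNA came from 2 samples of normal ureter and 2 of ureter tumor, each hybridized to 1 Affymetrix mm 430 2.0 array, a mouse expression array, with the epithelium isolated from mice aged 6 to 8 weeks per the labels' protocols. The study addressed Notch signaling in cancer of the urothelium, the epithelium of the urinary tract. All 4 samples carry the same treatment text, which describes R26rtTA;teto-Cre;Ncstnf/f animals on doxycycline during 1 week, begun when they were 3 weeks old, so that Cre recombinase deletes Ncstn, the gene of the gamma-secretase subunit nicastrin. Sample genotypes, the deleted part of Ncstn and the number of animals per sample were not given in the sources used here, and rtTA from the R26 locus is not restricted to the urothelium. The samples are labelled biological replicates without naming animals, so the p-values reflect only how far these samples spread, which may be technical.

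Cells burn fatty acids in a fixed order. A fatty acid is first joined to coenzyme A, is carried across the inner mitochondrial membrane as a carnitine ester, and is then shortened from its end in repeated rounds of oxidation that feed electrons to the respiratory chain. Peroxisomes run a similar cycle for long and branched chains, ketone bodies made by the liver are burned in other organs, and pyruvate dehydrogenase kinases hold back the entry of glucose carbon while fat is used. Brown fat, heart, and the proximal tubule of the kidney are known for high rates of this pathway.

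The tissue labels were checked against marker genes, and genes of other cell types gave signal beside those of urothelium. Signal here is the deposited MAS5 value of a probe set, in arbitrary units scaled to the same trimmed mean on each array. Ucp1, the heat-producing uncoupling protein that defines brown fat, read 19660 and 21580 in normal ureter against 3.15 and 3.41 in the tumors. The umbrella cell gene Upk3a read 5987 and 11462 against 69.8 and 52.3, and Krt7, an epithelial keratin, read 14089 and 23467 against 19322 and 6708. The tumor arrays differed from each other more than the normal arrays did, with Pearson's r across genes of 0.786 against 0.976, and genes are not independent replicates. Gapdh probe sets at the 3' and 5' ends, whose ratio tracks RNA quality, gave ratios of 0.92 and 0.923 in normal ureter against 1.51 and 1.44 in the tumors. The same ratio of Actb went the other way, at 2.90 and 2.82 against 2.47 and 2.63, and the part of RNA quality in the results was not tested.

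Most of the oxidation genes lay lower in both tumors, and 2 of them, Pdk4 and Hadhb, passed the test. Of the 35 genes, 26 had both tumor arrays below both normal arrays, where 27.7% of all 13046 genes tested did, and 2 had both above, where 29.4% did. The limma test with Benjamini-Hochberg adjustment over all genes tested, at a threshold of 0.05, called 2 of the 35 lower, where 0.943% of all genes were called lower, and 0 higher, where 0.491% were. At an unadjusted limma p under 0.05 there were 21 lower and 2 higher, against backgrounds of 10.9% and 10.6%. The median difference, tumor minus normal on the log2(signal + 16) scale, was -1.78 over the 35 genes and 0.03 over all genes tested. The genes were chosen with results of these data known, so these counts describe the list and are no independent support for its direction. In bulk samples, fewer cells of a type and less RNA per cell cannot be told apart.

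**Figure D1:**
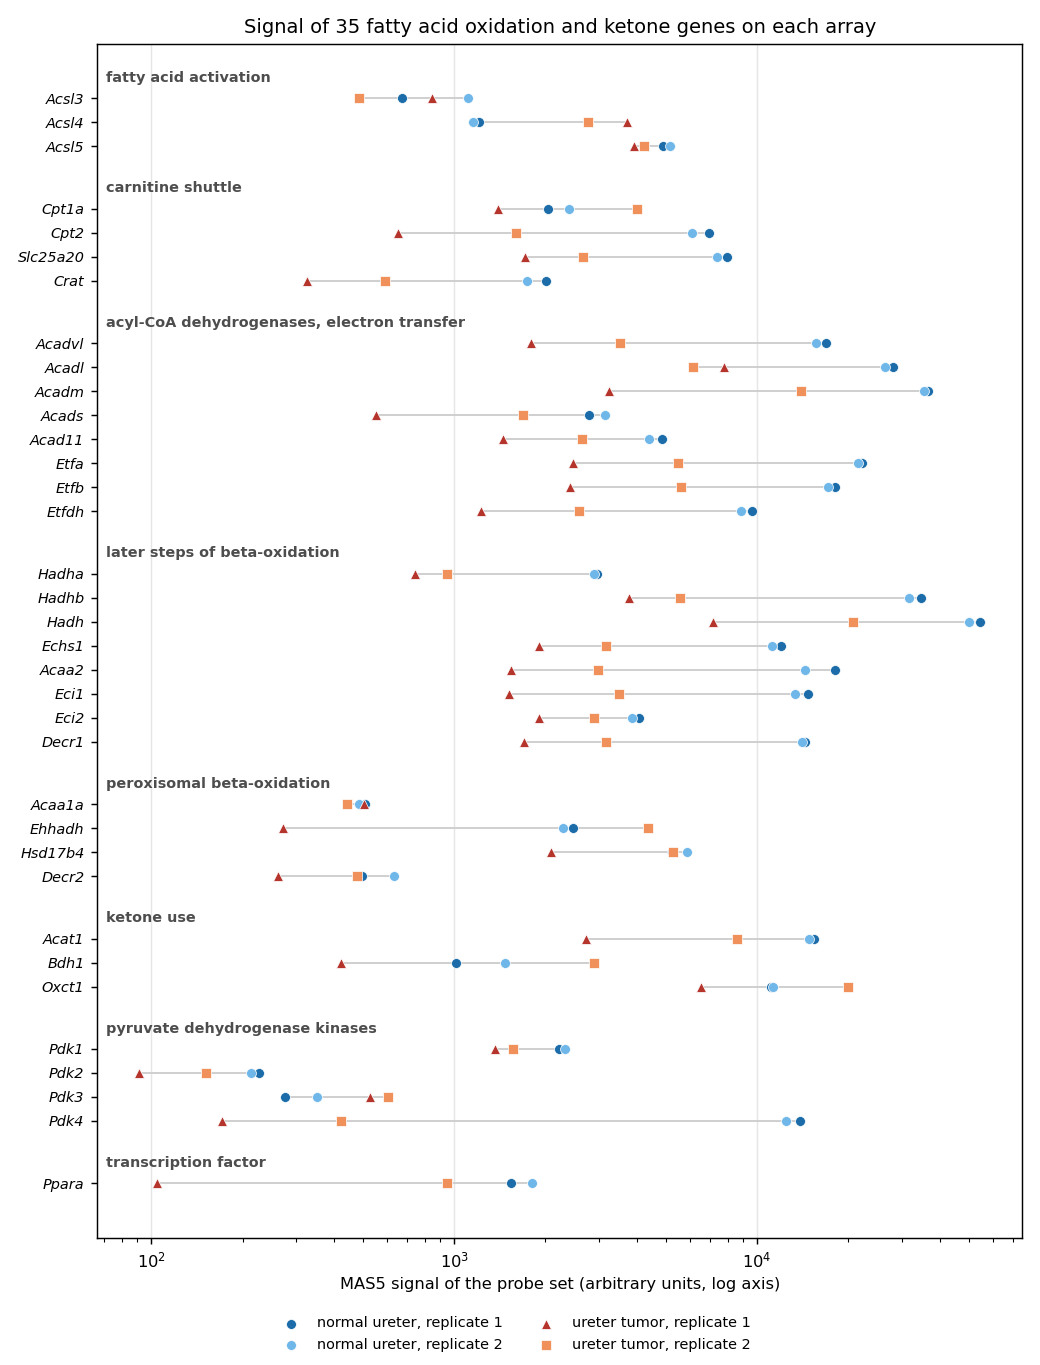
Deposited MAS5 signal (arbitrary units, log axis) of the probe set read for each of the 35 genes on the 2 normal arrays (circles), tumor replicate 1 (triangles) and tumor replicate 2 (squares), grouped by role; grey lines join the lowest and highest array. For most genes of the carnitine shuttle and mitochondrial beta-oxidation both tumor arrays lie left of both normal arrays, while for Ehhadh, Bdh1, Oxct1 and Cpt1a the tumor replicate 2 square lies right of the normal circles.

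The gap was seen in the carnitine shuttle and in mitochondrial beta-oxidation, and less evenly elsewhere. Of the 20 genes measured for these steps, 19 had both tumor arrays below both normal arrays, where 27.7% of all genes tested did. On the log2(signal + 16) scale 18 of the 20 were at least 2-fold lower and 13 at least 4-fold lower. Of all genes tested 10.9% and 3.47% were. The median difference of the 20 genes was -2.24, with -2.86 on tumor replicate 1 and -1.74 on tumor replicate 2. Hadhb alone of these 20 passed the limma test, where 0.943% of all genes tested were called lower. The other 19 had adjusted p-values from 0.0505 to 0.941. Whether the steps differ from one another was not tested.

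The carnitine shuttle carries acyl groups into mitochondria. Of its 4 measured genes 3 lay lower in both tumors, where 27.7% of all genes tested did. Slc25a20, the carnitine-acylcarnitine carrier of the inner membrane (1423108_at), read 7944 and 7376 in normal ureter against 1706 and 2664 in the tumors, a difference of -1.84 (SE 0.28, 2 arrays a group, limma adjusted p = 0.075). Crat, the acetyltransferase that moves short acyl groups to carnitine (1417008_at), read 2001 and 1742 against 325.9 and 591.7, a difference of -2.05 (SE 0.35, adjusted p = 0.0889). Cpt2, which returns the acyl group to coenzyme A inside the mitochondrion (1416772_at), read 6954 and 6096 against 653.6 and 1602, a difference of -2.65 (SE 0.48, adjusted p = 0.0961). On the probe sets read for these 3 genes the groups did not overlap, tumor replicate 1 was the lowest array, and none passed the test. The further probe set of Cpt2, 1447820_x_at, read 52.2 and 144.3 in normal ureter against 42.1 and 90.0. It gave a difference of -0.41 with groups that overlapped.

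Cpt1a, the outer membrane transferase that sets the pace of entry, did not share that gap. Its signals (1460409_at) were 2047 and 2398 in normal ureter, 1393 on tumor replicate 1 and 4022 on tumor replicate 2, so that the tumor arrays lay on either side of the normal ones. The difference was 0.10 (SE 0.56, limma adjusted p = 0.941). Both further probe sets of Cpt1a were highest on tumor replicate 2 as well, and 1434866_x_at read 636.4 and 676.9 in normal ureter, 655.4 on tumor replicate 1 and 3814 on tumor replicate 2. Without tumor replicate 1 the difference of Cpt1a was 0.86, and without tumor replicate 2 it was -0.66.

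The acyl-CoA dehydrogenases take the first electrons from the fatty acid, each for a range of chain lengths. All 8 genes of this step and its electron carriers lay lower in both tumors, where 27.7% of all genes tested did. Acadl, for long chains (1448987_at), read 28054 and 26380 in normal ureter against 7772 and 6158 in the tumors, a difference of -1.97 (SE 0.22, 2 arrays a group, limma adjusted p = 0.0505). Acadvl, for very long chains (1424184_at), read 16875 and 15641 against 1792 and 3516, a difference of -2.69 (SE 0.38, adjusted p = 0.0689). Acadm, for medium chains (1415984_at), read 36695 and 35441 against 3235 and 13987, a difference of -2.42 (SE 0.76, adjusted p = 0.192). The normal arrays agreed closely for these genes, and the tumor arrays lay apart for Acadm, with tumor replicate 2 at 4.31-fold the level of tumor replicate 1.

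Acads, for short chains, read 2795 and 3152 in normal ureter against 553.5 and 1691 in the tumors, a difference of -1.60 (adjusted p = 0.231). Acad11, a dehydrogenase of longer chains, had a difference of -1.23 (adjusted p = 0.167), and its further probe set 1433545_s_at gave -1.85. The electron transfer flavoprotein, which collects the electrons from these dehydrogenases, is made of the products of Etfa and Etfb. Etfa read 22212 and 21498 against 2462 and 5470, a difference of -2.57 (SE 0.44, adjusted p = 0.0889), and Etfb one of -2.25 (SE 0.46, adjusted p = 0.112). Etfdh, the oxidoreductase that passes the electrons on to ubiquinone, read 9581 and 8842 against 1230 and 2574, a difference of -2.36 (SE 0.40, adjusted p = 0.0895). These 5 genes did not overlap between groups either, and each was lowest on tumor replicate 1.

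The later steps hydrate, oxidize and cleave the chain, and Hadhb fell among them. The mitochondrial trifunctional protein joins these steps for long chains, with its alpha subunit from Hadha and its beta subunit from Hadhb. Hadhb (1426522_at) read 34721 and 31663 in normal ureter against 3772 and 5573 in the tumors, and it fell by 2.85 in log2 units, or 7.21-fold (SE 0.27, 2 arrays a group, limma adjusted p = 0.0425). Hadha (1452173_at) read 2957 and 2890 against 741.7 and 947.5, a difference of -1.78 (SE 0.20, adjusted p = 0.0523). The groups lay far apart for both subunits, on all 3 probe sets of Hadhb, whose further ones gave -1.43 and -1.39. The call of Hadhb ended without normal replicate 1 (adjusted p = 0.643) and without normal replicate 2 (adjusted p = 0.655), while the differences there were -2.78 and -2.92. It was also lost with median centring (0.0501), the mean of the gene's probe sets (0.0649), no intensity trend (0.0638) and a replicate block (0.115).

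Hadha and Hadhb are neighbours that point away from each other, with 272 bases between their starts. Their promoter windows in the RefSeq table (GRCm38.p6) cover a common stretch, printed here because both subunits of the enzyme were lower together, with the GC box GGGCGG, on either strand, in capitals. The stretch lies wholly between the starts.

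Hadha and Hadhb, common stretch, chr5:30155003-30155230, plus strand: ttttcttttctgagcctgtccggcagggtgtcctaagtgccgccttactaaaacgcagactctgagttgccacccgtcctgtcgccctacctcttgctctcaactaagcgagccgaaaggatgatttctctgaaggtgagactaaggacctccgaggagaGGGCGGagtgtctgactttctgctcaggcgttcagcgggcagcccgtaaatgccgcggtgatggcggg

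Of the remaining later steps, Acaa2, the thiolase that releases acetyl-CoA (1428146_s_at), read 18044 and 14424 in normal ureter against 1538 and 2990 in the tumors, a difference of -2.90 (SE 0.39, limma adjusted p = 0.0646), and its further probe sets gave -2.71 and -3.62. Decr1, a reductase for unsaturated chains (1419367_at), read 14382 and 14066 against 1696 and 3160, a difference of -2.61 (SE 0.35, adjusted p = 0.0657). Its further probe set 1449443_at gave -1.70. Hadh, the dehydrogenase of short and medium chains (1455972_x_at), read 54576 and 50176 against 7157 and 20689, a difference of -2.10 (SE 0.58, adjusted p = 0.165), and its tumor arrays were 2.89-fold apart. Its suffix marks probes shared between transcripts, and further probe sets gave -2.51 (1460184_at) and -0.70 (1436756_x_at). On 1436756_x_at tumor replicate 1, at 267.7, lay between the normal arrays, at 363.6 and 226.1.

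Echs1, the enoyl-CoA hydratase, had a difference of -2.23 (SE 0.31, adjusted p = 0.0669). The isomerase genes Eci1 and Eci2, whose enzymes shift double bonds of unsaturated chains, gave -2.60 (adjusted p = 0.0919) for Eci1 and -0.75 (adjusted p = 0.219) for Eci2. Eci2 was the closest of the 8 to the normal level, with 4061 and 3861 in normal ureter against 1907 and 2883 in the tumors. All 8 genes of these later steps had both tumor arrays below both normal ones, where 27.7% of all genes tested did. All 8 were also lower on tumor replicate 1 than on tumor replicate 2, where 48.8% of all genes tested were.

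**Figure D2:**
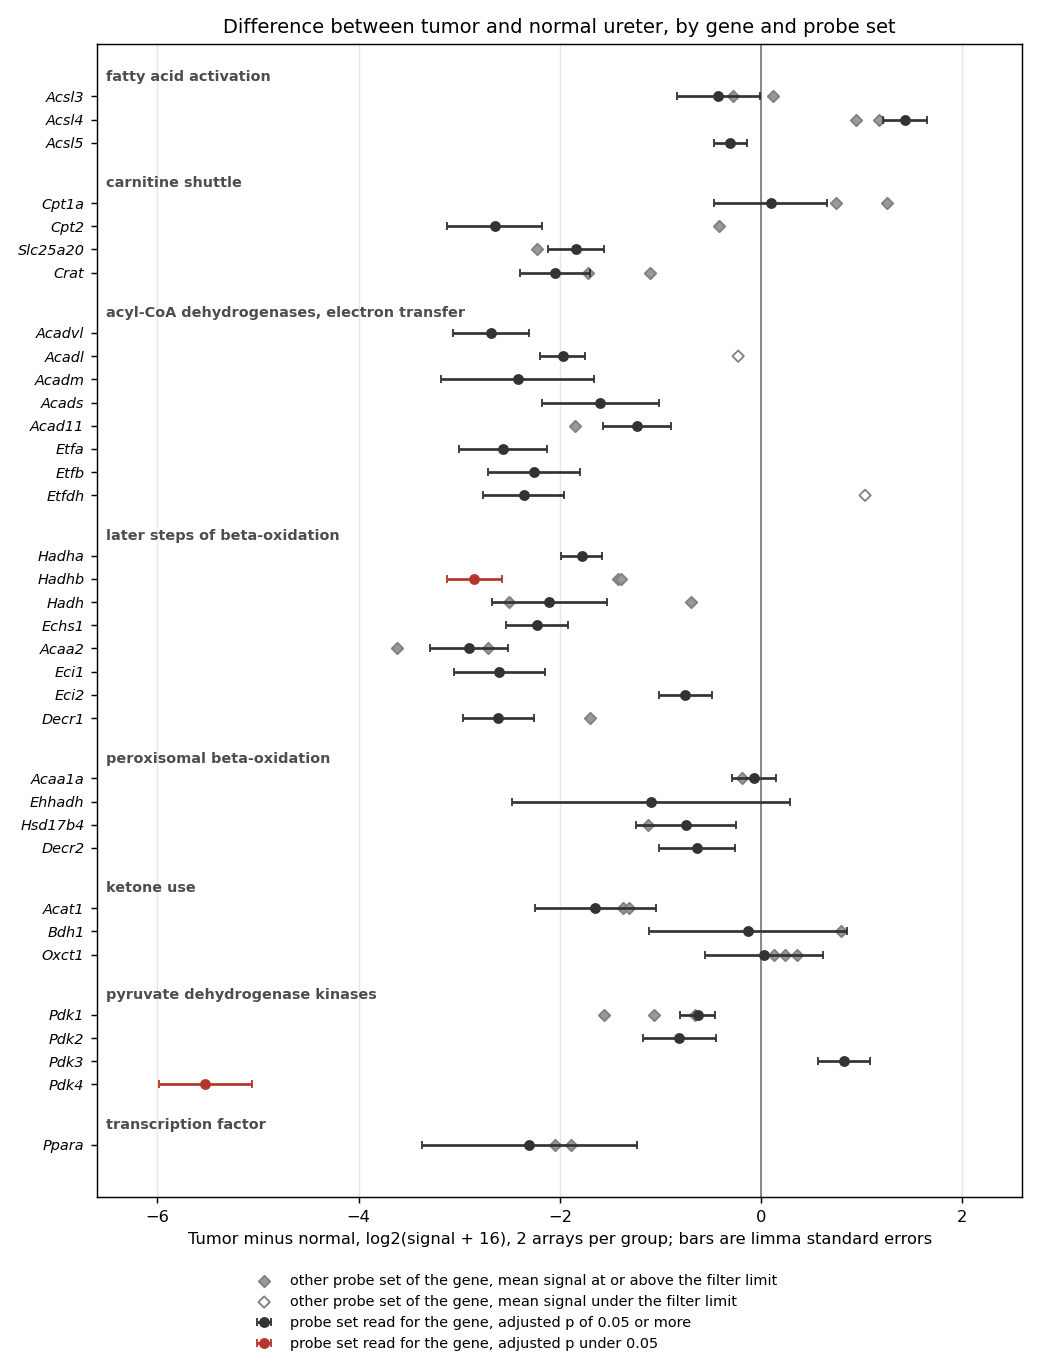
Tumor minus normal on the log2(signal + 16) scale for each of the 35 genes (circles, with limma standard errors, 2 arrays per group) and for the further single-gene probe sets of the same genes (diamonds, open where the mean signal is under the filter limit of 54.6). Pdk4 and Hadhb, in red, passed the test, and Pdk4 lies farthest left at -5.52.

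The further probe sets mostly pointed the same way. There were 33 of them in 20 genes, and of the 31 with a mean signal at or above the filter limit of 54.6, 2 pointed against the probe set read for the gene. These were 1428386_at of Acsl3, at 0.12, and 1426959_at of Bdh1, at 0.79. Of the 2 dim ones, 1458152_at of Etfdh gave 1.04, at a mean signal of 14.3.

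Of the 3 genes measured for fatty acid activation, the joining to coenzyme A, 1 lay higher and 1 lower in both tumors, and 0 passed the test. Of all genes tested, 29.4% lay higher and 27.7% lower in both tumors, and 1.43% passed. Acsl4, a synthetase that prefers arachidonic acid (1433531_at), read 1203 and 1154 in normal ureter against 3719 and 2766 in the tumors. That is a difference of 1.43 (SE 0.22, 2 arrays a group, limma adjusted p = 0.0777), with both tumor arrays above both normal ones, and its further probe sets gave 1.17 and 0.95. Acsl5, a synthetase of gut and liver (1428082_at), read 4879 and 5171 against 3917 and 4227, a difference of -0.30 (SE 0.17, adjusted p = 0.377). Acsl3, a synthetase tied to lipid droplets (1452771_s_at), read 672.5 and 1106 against 843.1 and 484.9, a difference of -0.42 (adjusted p = 0.6), so its groups overlapped.

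The macrophage markers moved with Acsl4, and their part in its value was not tested. On both tumor arrays all 6 of them exceeded both normal arrays, where 29.4% of all genes tested did. The summed signal of the 6 was 7919 to 9196 in normal ureter and 32959 to 40003 in the tumors. Csf1r, the receptor for the macrophage growth factor, read 4415 and 3949 against 17035 and 15523, and rose by 1.96 in log2 units (SE 0.19, limma adjusted p = 0.0425). C1qb and Mpeg1, a complement chain and a pore-forming protein of macrophages, rose by 2.65 and 2.26 (adjusted p = 0.0402 and 0.0425).

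Peroxisomal beta-oxidation gave 0 of 4 genes past the test, where 0.943% of all genes tested were called lower and 0.491% higher. On the probe sets read, 1 of the 4 had both tumor arrays below both normal arrays, where 27.7% of all genes tested did. Ehhadh, the bifunctional enzyme of the peroxisome (1448382_at), read 2467 and 2289 in normal ureter, 271.7 on tumor replicate 1 and 4370 on tumor replicate 2. The tumor arrays were thus 15.2-fold apart with the normal arrays between them, and the difference of -1.09 had an SE of 1.38 (limma adjusted p = 0.691). Hsd17b4, the other bifunctional enzyme (1455777_x_at), read 5239 and 5887 against 2079 and 5255, a difference of -0.75 (SE 0.50, adjusted p = 0.448). Its further probe set 1417369_at read 4970 and 5438 against 1627 and 3479, a difference of -1.12. On that probe set both tumor arrays lay below both normal ones. Decr2, the peroxisomal reductase (1423495_at), read 497.8 and 632.1 against 262.7 and 478.5, a difference of -0.64 (SE 0.38, adjusted p = 0.403).

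Acaa1a, a peroxisomal thiolase, gave a flat value on probe sets annotated to it alone, though their suffix marks probes shared between transcripts. It had 506.0 and 485.8 in normal ureter against 503.2 and 441.5 in the tumors (1456737_x_at), a difference of -0.07 (adjusted p = 0.886) that turned to 0.13 when each array was centred on its median. Another pair of probe sets is annotated to both Acaa1b and Acaa1a and was left out of the count. 1416947_s_at read 10900 and 13998 in normal ureter against 2668 and 7947 in the tumors, a difference of -1.42, and 1416946_a_at gave -1.65. Which gene these follow cannot be read from the array.

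The ketone genes split the tumor arrays. Acat1, the thiolase that cleaves acetoacetyl-CoA (1424183_at), read 15423 and 14879 in normal ureter against 2716 and 8585 in the tumors, a difference of -1.65 (SE 0.60, 2 arrays a group, limma adjusted p = 0.234). Oxct1, the transferase that starts ketone use outside the liver (1449059_a_at), had 11108 and 11275 in normal ureter, 6540 on tumor replicate 1 and 19904 on tumor replicate 2. Its difference was 0.03 (SE 0.59, adjusted p = 0.986), and all 4 probe sets of Oxct1 were lowest on tumor replicate 1 and highest on tumor replicate 2. Bdh1, the hydroxybutyrate dehydrogenase (1452257_at), had 1015 and 1465, then 423.4 on tumor replicate 1 and 2886 on tumor replicate 2, a difference of -0.13 (SE 0.98, adjusted p = 0.955). A mean near 0 for Oxct1 and Bdh1 therefore came from tumor arrays on opposite sides of the normal ones, not from tumor arrays at the normal level.

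Among the pyruvate dehydrogenase kinases, Pdk4 fell and the others differed by less. Pdk4, the kinase that fasting and fatty acids induce (1417273_at), read 13897 and 12456 in normal ureter against 171.1 and 421.7 in the tumors. It fell by 5.52 in log2 units, or 46.0-fold (SE 0.46, 2 arrays a group, limma adjusted p = 0.0412), the largest difference among the 35 genes in either direction. The call ended without normal replicate 1 (adjusted p = 0.643) and without normal replicate 2 (adjusted p = 0.655), while the differences there were -5.45 and -5.60. It was also lost with median centring (0.0501), no intensity trend (0.0603) and a replicate block (0.108).

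Pdk1, a kinase induced by low oxygen (1423747_a_at), had 2215 and 2326 in normal ureter against 1364 and 1564 in the tumors, a difference of -0.63 (SE 0.18, adjusted p = 0.171), and its 3 further probe sets gave -0.66 to -1.56. Pdk2, a widely expressed kinase, read 226.5 and 212.5 against 91.2 and 151.6, a difference of -0.81 (adjusted p = 0.298). Pdk3 went the other way, with 275.2 and 351.6 against 525.3 and 604.2, both tumor arrays above both normal ones, a difference of 0.82 (SE 0.26, adjusted p = 0.192). No pair of these kinases was compared by a test, since signals of different probe sets cannot be set against each other.

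Ppara, the nuclear receptor that switches on oxidation genes when fatty acids rise, was lower in both tumors but unevenly. Its signals (1449051_at) were 1539 and 1799 in normal ureter, 104.2 on tumor replicate 1 and 948.7 on tumor replicate 2. The difference was -2.30 (SE 1.07, 2 arrays a group, limma adjusted p = 0.308), and the further probe sets gave -1.89 and -2.05. On all 3 probe sets tumor replicate 1 was the lowest array, and on 1449051_at the tumor arrays were 8.02-fold apart.

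Promoter windows of the genes were searched for the nuclear receptor half-site AGGTCA, since Ppara and related receptors bind paired copies of it. The RefSeq table (GRCm38.p6) held windows for 31 of the 37 genes, and the 250 bases before each start were read on both strands. AGGTCA was found in 4 of the 31 genes (12.9%), against 15.76% of the 27025 genes with a window, and these were Cpt1a, Acadvl, Acadm and Echs1. The spaced repeat AGGTCANAGGTCA, which contains AGGTCA, was found in 0 of the 31 and in 11 of all genes. GGGCGG was found in 21 of the 31 genes (67.7%) against 35.4%, and CCAAT in 15 (48.4%) against 37.5%. A match is only a match of letters, and a window without one says nothing about the factor.

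The windows of Acadm and Acadvl, which lay lower in both tumors, and of Cpt1a, which did not, are printed because each holds an AGGTCA half-site, and that of Pdk4 because it fell most. Each runs 5′ to 3′ on the gene's own strand and ends at its start. Capitals mark AGGTCA on either strand, or CCAAT on either strand for Pdk4.

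Acadm, chr3:153944644-153944893, minus strand: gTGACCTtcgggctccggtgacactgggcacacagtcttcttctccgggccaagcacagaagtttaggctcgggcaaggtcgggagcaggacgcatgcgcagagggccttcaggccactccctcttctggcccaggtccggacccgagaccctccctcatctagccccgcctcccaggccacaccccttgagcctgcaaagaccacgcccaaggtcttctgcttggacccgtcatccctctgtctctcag
Acadvl, chr11:70015429-70015678, minus strand: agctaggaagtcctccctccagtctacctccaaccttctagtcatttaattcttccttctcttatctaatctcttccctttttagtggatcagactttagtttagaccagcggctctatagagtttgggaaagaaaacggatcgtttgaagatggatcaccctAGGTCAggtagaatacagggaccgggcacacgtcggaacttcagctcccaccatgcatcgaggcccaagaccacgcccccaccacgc
Cpt1a, chr19:3323051-3323300, plus strand: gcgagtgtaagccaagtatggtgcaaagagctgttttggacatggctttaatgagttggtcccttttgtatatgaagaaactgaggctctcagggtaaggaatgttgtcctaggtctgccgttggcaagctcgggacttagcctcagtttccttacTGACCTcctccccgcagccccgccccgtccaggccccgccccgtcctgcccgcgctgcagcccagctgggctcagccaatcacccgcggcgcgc
Pdk4, chr6:5496279-5496528, minus strand: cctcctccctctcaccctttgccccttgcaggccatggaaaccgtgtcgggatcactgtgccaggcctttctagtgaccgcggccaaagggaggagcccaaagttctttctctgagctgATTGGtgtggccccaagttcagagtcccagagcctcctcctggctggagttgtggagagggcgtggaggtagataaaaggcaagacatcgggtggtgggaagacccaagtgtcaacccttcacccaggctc

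Within the tumors, the genes were higher on replicate 2 than on replicate 1. This held for 31 of the 35 genes, where 48.8% of all genes tested were higher on tumor replicate 2. The 4 exceptions were Acsl3, Acsl4, Acadl and Acaa1a. The median difference from the normal mean was -2.39 on tumor replicate 1 and -0.82 on tumor replicate 2, and 16 of the 35 genes were at least 2-fold apart between the tumor arrays, where 23.2% of all genes tested were. The normal arrays had a median gap of 0.11 on the log2 scale over the 35 genes.

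**Figure D3:**
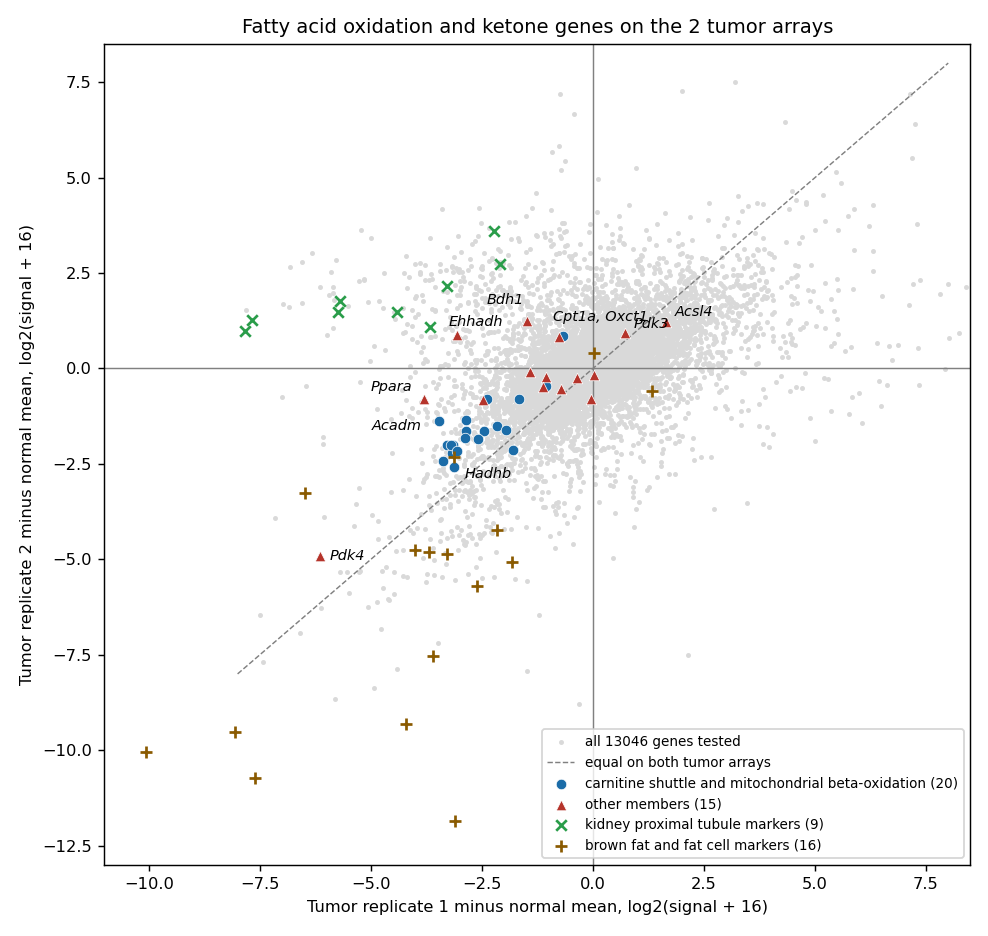
Each point is a gene, with its difference from the normal mean on tumor replicate 1 (horizontal) and tumor replicate 2 (vertical), both on the log2(signal + 16) scale; grey points are all 13046 genes tested and the dashed line marks equal values on both tumor arrays. Most oxidation genes lie at lower left above the dashed line, Ehhadh and Bdh1 lie at upper left on the side of the kidney proximal tubule markers (crosses), and brown fat and fat cell markers (plus signs) lie mostly at lower left.

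On tumor replicate 2, 6 of the 35 genes lay above both normal arrays, where 45% of all genes tested did. These were Acsl4, Cpt1a, Ehhadh, Bdh1, Oxct1 and Pdk3, and on tumor replicate 1 only Acsl4 and Pdk3 of the 35 lay above both. The fit without tumor replicate 1 called 24 of the 35 genes lower and 6 higher, where 15.5% and 17.4% of all genes tested were. The fit without tumor replicate 2 called 30 lower and 1 higher, where 21.1% of all genes tested were called in each direction. These fits leave 1 tumor array, which is assumed to vary like the normal arrays, so they describe that array against normal ureter rather than tumors in general. The counts of all genes called there were 4298 and 5502.

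Kidney proximal tubule markers moved with the split between the tumor arrays. All 9 were above both normal arrays on tumor replicate 2, where 45% of all genes tested were. All 9 were also below both on tumor replicate 1, where 5722 of all 13046 genes tested were. The summed signal of the 9 was 27071 and 52049 in normal ureter, 489.6 on tumor replicate 1 and 86159 on tumor replicate 2. Kap, an androgen-regulated kidney protein, had 16792 and 41745 in normal ureter, 100.7 on tumor replicate 1 and 52269 on tumor replicate 2. Miox, an inositol oxygenase of the tubule, had 4198 and 3672, then 3.34 and 9437, and Lrp2, the uptake receptor megalin, had 1565 and 1982, then 17.3 and 4972. Their part in the values of Ehhadh, Bdh1, Oxct1, Cpt1a and the other oxidation genes was not tested.

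Brown fat and fat cell markers moved with the gap between tumor and normal ureter. Of the 11 brown fat markers 9 were tested and 4 fell, where 0.943% of all genes tested were called lower. Both tumor arrays lay under both normal ones for 7 of the 9, where 27.7% of all genes tested did. The list's summed signal was 91336 to 99829 in normal ureter and 2213 to 3349 in the tumors. Ucp1 fell by 10.06 in log2 units (SE 0.20, limma adjusted p = 0.00863), Cox8b, a subunit of cytochrome oxidase in muscle and brown fat, fell by 8.80 (adjusted p = 0.0369) and Kcnk3, a potassium channel, fell by 4.39 (adjusted p = 0.0425). The fourth, Otop1, a proton channel, fell by 4.25 (adjusted p = 0.0496) and is named after its value was seen. Dio2 and Prdm16 did not share this, with differences of 0.36 and 0.21 (adjusted p = 0.8 and 0.672).

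Fat cell markers were lowest on the tumor array where the oxidation genes were less low. All 7 measured markers had both tumor arrays below both normal ones, where 27.7% of all genes tested did. The test was passed by 0 of the 7 markers, where 1.43% of all genes tested passed. The summed signal of the markers was 248911 to 264131 in normal ureter, 39782 on tumor replicate 1 and 6406 on tumor replicate 2. Fabp4, the fatty acid binding protein of fat cells, had 105906 and 124150 in normal ureter against 25536 and 6072, a difference of -3.20 (SE 0.76, adjusted p = 0.137). Lipe, the hormone-sensitive lipase, and Cidec, a lipid droplet protein, gave differences of -4.06 and -5.57 (adjusted p = 0.0727 and 0.146). The part of brown fat or fat cells in the lower oxidation genes was not tested.

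Most other cell type lists also lay lower in the tumors. Smooth muscle markers had a median difference of -1.83, and 6 of 6 lay below both normal arrays, where 27.7% of all genes tested did. Myh11, the smooth muscle myosin, fell by 3.37 (limma adjusted p = 0.0402). Acta2, the brightest smooth muscle marker, read 35083 and 27665 in normal ureter against 9957 and 18209, a difference of -1.21 (adjusted p = 0.195). Striated muscle is another known site of this pathway, and 4 of its 10 markers reached the filter limit. The list's summed signal was 2189 to 2779 in normal ureter and 251.7 to 569.7 in the tumors. Most of it in normal ureter came from Myl1, a myosin light chain, at 1736 and 1401 there against 48.8 and 8.06. Myl1 alone of the 4 tested passed, where 0.943% of all genes tested were called lower, and fell by 5.32 (adjusted p = 0.0487). Myh1, Myh2, Myh4 and Myh7, also myosins, were under the filter limit and read at most 45.2 in normal ureter. Of the hepatocyte list, Alb fell by 5.28 (adjusted p = 0.0487) while Ttr, also made outside the liver, had 3184 and 6341 in normal ureter against 4.17 and 12990 in the tumors. Urothelial markers had a median of -2.79, and 3 of 9 passed, where 0.943% of all genes tested were called lower. These 3 were Upk3a, Krt20 and Upk1b, with differences of -4.93 to -6.76. The basal cell genes Krt5 and Trp63, named after their values were seen, lay above both normal arrays on tumor replicate 1 and below both on tumor replicate 2. Krt5 read 3415 and 5518 in normal ureter, then 15780 and 627.5, and Trp63 read 2446 and 3847, then 10167 and 440.3. The part of these lists in the results was not tested.

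**Figure D4:**
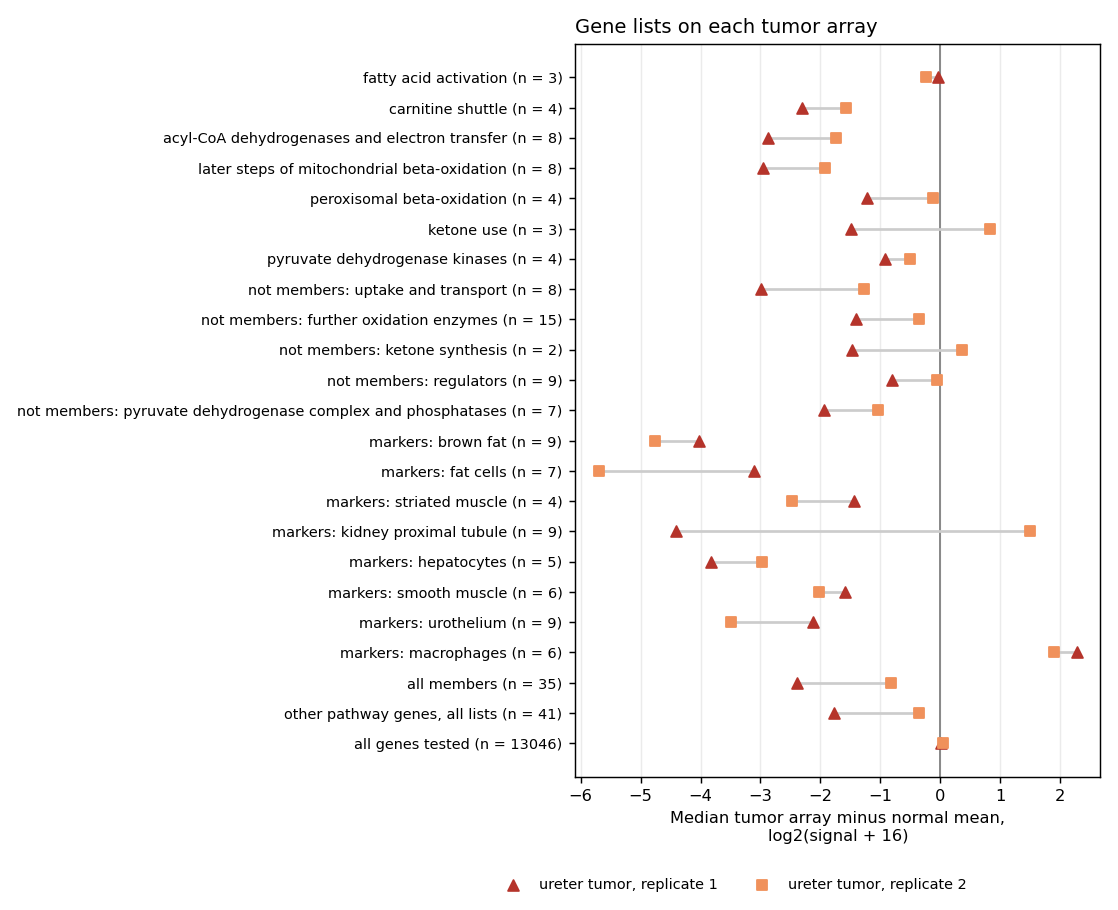
Median over the tested genes of each list of the difference from the normal mean on tumor replicate 1 (triangles) and tumor replicate 2 (squares), on the log2(signal + 16) scale. Mitochondrial steps lie between -1.57 and -2.96 on both tumor arrays, ketone use spans -1.49 to 0.83, and the kidney proximal tubule markers span -4.41 to 1.49.

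Other genes of the pathway, from lists set by function, were counted in the same fit. Of 48 genes 41 were tested, 6 fell, 0 rose and 35 did not pass, where 0.943% of all genes tested were called lower and 0.491% higher. Both tumor arrays lay below both normal arrays for 25 of them, where 27.7% of all genes did. Their median difference was -1.005, with -1.77 on tumor replicate 1 and -0.36 on tumor replicate 2. As with the 35 genes, tumor replicate 2 was the less low array for the list.

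Fatty acid uptake genes gave 4 of the 6 calls. Cd36, the fatty acid translocase, read 23763 and 22338 in normal ureter against 2005 and 1977 in the tumors and fell by 3.52 in log2 units (SE 0.17, 2 arrays a group, limma adjusted p = 0.0369). Lpl, the lipase that frees fatty acids from lipoproteins, read 80197 and 77209 against 10529 and 10480 and fell by 2.90 (SE 0.22, adjusted p = 0.0402). Slc27a1, a fatty acid transport protein of muscle and fat, fell by 3.21 (adjusted p = 0.0402), and Fabp5, a fatty acid binding protein named after its value was seen, fell by 2.54 (adjusted p = 0.0425). On these 4 genes both tumor arrays lay well below both normal arrays and close to each other.

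Of 15 further oxidation enzymes and transporters tested, 1 fell. It was Acacb, whose product makes the malonyl-CoA that blocks carnitine-dependent entry, which read 4723 and 3955 in normal ureter, 136.7 and 255.1 in the tumors, and fell by 4.41 (SE 0.35, adjusted p = 0.0408). Mlycd, which breaks malonyl-CoA down, had a difference of -0.94 (adjusted p = 0.15), and Abcd2, a peroxisomal transporter, one of -3.92 (adjusted p = 0.137). Scp2, a peroxisomal thiolase and lipid carrier, read 15038 and 15046 against 9114 and 13656, a difference of -0.43 (adjusted p = 0.43). For ketone synthesis 2 genes could be tested and 0 passed, where 1.43% of all genes tested did. The ketone and lactate carrier Slc16a1 had a difference of -0.98 (limma adjusted p = 0.197). Bdh2, a cytosolic dehydrogenase, read 482.4 and 423.1 in normal ureter, 75.7 on tumor replicate 1 and 1952 on tumor replicate 2. Its difference of -0.14 (adjusted p = 0.97) thus came from tumor arrays on opposite sides of the normal ones.

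Of 9 regulators tested 1 fell, and of 7 genes of the pyruvate dehydrogenase complex and its phosphatases 0 passed. Pparg, the master regulator of fat cells, had 4771 and 4589 in normal ureter against 226.7 and 93.2 in the tumors and fell by 4.85 (SE 0.44, limma adjusted p = 0.0425). Ppargc1b, a coactivator of mitochondrial genes, had a difference of -1.53 (adjusted p = 0.15) and Rxra, the partner receptor of Ppara, one of -0.60 (adjusted p = 0.246). Nrip1 read 3647 and 3343 in normal ureter against 4365 and 3016 in the tumors, a difference of 0.055 (adjusted p = 0.922). In the complex that the Pdk kinases hold back, Pdhb read 28712 and 29830 against 3599 and 5745, a difference of -2.68 (SE 0.30, adjusted p = 0.0503), and Dlat and Pdha1 gave differences of -1.73 and -2.19 (adjusted p = 0.0908 and 0.0937). Subunits of the complex lay lower in both tumors beside its kinase Pdk4.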

How the data were processed

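Signal intensity per probe set was deposited by the authors on a linear scale, with MAS5 named in the submitters' processing notes (version and detection calls not given in the sources used here). Each array had a mean of 500 after trimming 2% at either end, so a signal is relative to the rest of its array. Signals became log2(signal + 16), which understates changes of dim genes.

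The platform annotation gave 34945 of 45101 probe sets 1 symbol, 932 several and 9160 none; 64 were controls. A gene was read from its brightest single-gene probe set, and 13046 genes reaching the 40th percentile (54.6) were tested with limma 3.58.1 in R 4.3.3 (two-sided, intensity trend, Benjamini-Hochberg), after tests on simulated data. The simulated arrays all had a spread taken from the normal arrays, so those tests do not cover the wider spread between the tumor arrays. An exact permutation test of 2 against 2 cannot go below 0.333 and was not run.

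The members and lists were chosen with earlier results of these data known. All 37 genes are named, with every sample's signal for those past the test and, per role, the 2 smallest p and the brightest. Other lists give up to 3 smallest p and the brightest. Alternatives changed the pseudocount, normalization, filter, probe set rule, trend, block, threshold and arrays included. The number of arrays limits the precision.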

Additional observations from a re-analysis of the deposited data

How the results depend on the processing

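The direction held in 30 of the 35 oxidation and ketone genes under every alternative that gave a value per gene, and the calls did not. Past the test there were 2 of these genes among 187 genes in all, both lower, where 0.943% of all genes tested were called lower. The counts, again all lower among the 35, were 4 among 249 with a pseudocount of 64 and 4 among 237 with a filter at the 60th percentile. There 1.34% and 1.58% of all genes tested were called lower. Quantile normalization gave 3 among 184, where 0.935% were, and probe sets averaged per gene gave 1 among 104, where 0.583% were. With every probe set, 7 probe sets among 473 were called, where 1.19% of all probe sets tested were called lower. Median centring gave 0 among 35 calls in all, and leaving out the intensity trend gave 0 among 2. The shares of all genes tested called lower there were 0.192% and 0.00767%. In these limma fits with 0, an unadjusted p under 0.05 was reached by 18 of the 35 genes lower and 2 higher with median centring, where 22.9% of all genes tested reached it in either direction, and by 19 and 2 without the trend, where 21% did. The 2-fold rule at an unadjusted limma p under 0.05 gave 19 lower and 1 higher, 20 in all, among 1880. By that rule 7.5% of all genes tested were lower and 6.91% higher. Leaving out an array gave 0 to 31 of the 35 genes and 0 to 5502 of all genes, with 884 and 889 at an unadjusted p under 0.05 without normal replicate 1 or normal replicate 2. The replicate block gave 0 among 0, with 17.3% of all genes (2253) at an unadjusted p under 0.05, among them 21 of the 35 lower and 1 higher. Same-numbered arrays shared only a number (r = 0.039 across genes between their deviations from the group means), so no pairing was assumed. Pdk4 and Hadhb missed the threshold with limma adjusted p = 0.0501 each under median centring, which moved the median of all genes tested to 0.22. Acadl, not called in the main fit, passed with quantile normalization (0.0498), a pseudocount of 64 (0.0474) and the 60th percentile filter (0.0449). Hadha, also not called in the main fit, passed with that pseudocount (0.0476) and that filter (0.0475). Acaa1a turned to 0.13 under median centring and Bdh1 to 0.066, and Bdh1 to 0.33 with the mean of its probe sets. With an array left out, Cpt1a ranged from -0.66 to 0.86, Bdh1 from -1.49 to 1.23, Ehhadh from -3.06 to 0.87, Oxct1 from -0.77 to 0.83 and Acaa1a from -0.16 to 0.021. The cause of these changes was not tested. The median of the 35 genes lay between -1.53 and -1.81 under the 7 alternatives of pseudocount, normalization, centring, filter and averaged probe sets, and between -0.82 and -2.39 with an array left out.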

Other observations

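Slc27a2 and Fabp3, both chosen after their values were seen, split the tumor arrays more widely than any of the 35 genes. Slc27a2, a very long chain acyl-CoA synthetase of liver and kidney, read 8479 and 10216 in normal ureter, 65.5 on tumor replicate 1 and 28276 on tumor replicate 2. Fabp3, the fatty acid binding protein of heart and muscle, had 2046 and 2610, then 55.4 and 2663. Ppargc1a, a coactivator of oxidation genes, and Esrrg, a nuclear receptor, showed the same order of arrays, with 1899 and 1713, then 264.6 and 2913, for Ppargc1a and 476.7 and 360.1, then 94.4 and 1696, for Esrrg. None of these passed the limma test, with adjusted p-values of 0.504 to 0.997.

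One probe set, 1418328_at, is annotated to Gm44502, Cpt1b and Chkb together and so to no single gene. It read 2120 and 1822 in normal ureter, 38.8 on tumor replicate 1 and 448.9 on tumor replicate 2, a difference of -3.63 on the log2(signal + 16) scale.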
